A study of Mus musculus with 30 samples.

Results

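E2A occupancy was compared between EBF-/- pre-pro-B cells, which are arrested before commitment to the B lineage, and RAG1-/- pro-B cells, which are committed but cannot rearrange antigen receptor genes. Each cell type gave 1 chromatin immunoprecipitation library made with the same E2A antibody, and every E2A peak that the authors listed for these libraries was taken. The EBF-/- list held 4531 peaks and the RAG1-/- list 11846, which together mark 14351 distinct sites, out of 255687 peaks in all the peak lists read for the series. A site was called shared when a peak of one list overlapped a peak of the other by at least 1 bp. By that rule 2026 sites were shared, 2505 were listed in EBF-/- cells alone and 9820 in RAG1-/- cells alone.

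Both cell types came from C57BL/6 mice and carried no transgene. The EBF-/- cells grew on S17 stroma with IL7, SCF and FLT3 ligand. The RAG1-/- cells were enriched magnetically from femoral marrow as B220+ cells and then grown for 10 d in IL-7 plus SCF, with neither stroma nor FLT3 ligand named. What genotype, stage and culture each contribute cannot be told apart here. RNA was measured on two-colour arrays in 2 EBF-/-, 2 RAG1-/- and 2 E2A-/- pre-pro-B samples, and peak lists of EBF1, FOXO1, CTCF and histone marks came from the same EBF-/- or RAG1-/- cell types, 1 library each. Nothing in the labels says that the 2 RNA samples of a genotype came from separate animals, so the p-values measure only the spread between these samples. With 1 E2A library a cell type, differences between the peak lists have no replicate check, and read totals for these lists are unknown here.

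E2A, the product of Tcf3, is a basic helix-loop-helix protein that binds E-boxes, short palindromic sites written CANNTG, as dimers of E12 or E47. Id proteins lack the basic region and hold E proteins off DNA. In the marrow E2A acts with EBF1, FOXO1 and later PAX5 to switch on the surrogate light chain, the Igα and Igβ signalling chains and the recombination machinery. H3K4me3 marks promoters, H3K4me1 and H3K4me2 mark enhancers and promoters, and histone H3 acetylation marks active elements of both kinds.

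The promoters of 6 B-lineage genes are printed because E2A peaks near these genes were listed mainly or wholly in RAG1-/- cells and their RNA was higher there. Each run is the 250 bases before the transcription start, 5′ to 3′ on the strand of the gene, from RefSeq on build GRCm38.p6. Capitals mark every CANNTG match and every match to an EBF1-type palindrome, TCCC followed after any 2 bases by GGGA. The windows lie at chr16:16863986-16864235 (minus strand, Igll1), chr16:16869256-16869505 (minus, Vpreb1), chr10:75948050-75948299 (plus, Vpreb3), chr7:24897247-24897496 (plus, Cd79a), chr7:30879029-30879278 (minus, Cd22) and chr9:51213440-51213689 (plus, Pou2af1).
Igll1: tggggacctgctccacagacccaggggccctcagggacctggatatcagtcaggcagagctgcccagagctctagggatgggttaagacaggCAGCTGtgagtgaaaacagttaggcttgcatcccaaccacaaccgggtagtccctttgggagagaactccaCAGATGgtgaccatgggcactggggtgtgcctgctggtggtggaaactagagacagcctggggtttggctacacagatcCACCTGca
Vpreb1: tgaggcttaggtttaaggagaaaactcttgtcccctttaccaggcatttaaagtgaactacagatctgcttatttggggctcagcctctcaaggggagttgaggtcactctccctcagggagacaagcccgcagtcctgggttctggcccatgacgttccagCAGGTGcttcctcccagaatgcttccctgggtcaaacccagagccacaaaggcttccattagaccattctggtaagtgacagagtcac
Vpreb3: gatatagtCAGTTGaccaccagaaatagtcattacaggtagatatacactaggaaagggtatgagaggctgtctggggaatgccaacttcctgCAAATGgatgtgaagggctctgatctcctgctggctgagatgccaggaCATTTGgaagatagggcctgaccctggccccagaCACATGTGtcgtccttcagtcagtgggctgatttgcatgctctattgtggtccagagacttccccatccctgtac
Cd79a: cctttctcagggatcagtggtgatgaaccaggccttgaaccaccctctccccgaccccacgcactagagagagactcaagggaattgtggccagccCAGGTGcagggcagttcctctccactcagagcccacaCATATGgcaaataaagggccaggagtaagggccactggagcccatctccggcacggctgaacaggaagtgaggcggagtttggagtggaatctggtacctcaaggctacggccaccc
Cd22: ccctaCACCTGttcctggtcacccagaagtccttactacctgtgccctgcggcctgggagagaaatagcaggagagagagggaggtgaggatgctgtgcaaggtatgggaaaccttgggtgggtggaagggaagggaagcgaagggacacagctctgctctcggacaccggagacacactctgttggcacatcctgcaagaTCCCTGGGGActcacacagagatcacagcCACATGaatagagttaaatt
Pou2af1: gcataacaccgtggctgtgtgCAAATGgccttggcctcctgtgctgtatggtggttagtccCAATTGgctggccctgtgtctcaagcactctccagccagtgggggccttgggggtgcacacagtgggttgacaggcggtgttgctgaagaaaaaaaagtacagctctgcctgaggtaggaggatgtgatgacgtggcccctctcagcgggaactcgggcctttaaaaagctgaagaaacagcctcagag

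All 6 windows held at least 1 CANNTG match. Igll1, which encodes the λ5 chain of the surrogate light chain, held CAGCTG 158 bases and CACCTG 8 bases before its start, and Vpreb3 held 5 matches, 2 of them overlapping. Only the Cd22 window, of these 6, held the EBF1-type palindrome, as TCCCTGGGGA, 49 bases before the start. Over all 27025 genes of the RefSeq table, 66.0% of first-start windows of this length held CANNTG, 12.8% CAGCTG, 17.1% CACCTG or its reverse complement CAGGTG, and 0.788% the palindrome, read on both strands. Among the 704 genes with an entry in that table whose nearby E2A peaks were all of the RAG1-/- alone class and whose RNA was higher in RAG1-/- cells, the shares were 56.5%, 12.8%, 17.3% and 1.99%. Among genes with no E2A peak nearby they were 57.3%, 10.1%, 14.2% and 0.638%. In the opposite class, 215 genes near EBF-/- alone peaks only with lower RNA in RAG1-/- cells, they were 55.8%, 11.2%, 13.0% and 1.40%. The palindrome share was 1.26% of all 2699 genes near RAG1-/- alone peaks only and 1.02% of all 781 near EBF-/- alone peaks only. The E2A peaks are given on build mm8 and could not be placed on these windows, so a match here is a description of the letters and not of an occupied site.

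Peaks were 200 bp wide throughout, and the authors' score ran from 11 to 129 (median 14) in EBF-/- cells and from 9 to 138 (median 13) in RAG1-/- cells; it was used to rank peaks within a list only. The 2026 shared peaks made up 44.7% of the EBF-/- list (95% Clopper-Pearson interval 43.3 to 46.2, counting error only) and 17.1% of the RAG1-/- list (16.4 to 17.8). Strong sites were shared more often than weak ones in both lists. From the lowest to the highest score class, the shared part of the EBF-/- list was 27.3%, 35.8%, 51.8%, 66.2% and 83.0%. That of the RAG1-/- list was 7.90% in the lowest class and 17.0%, 26.9% and 43.3% in the highest 3. The median score was 16 for shared and 13 for unshared peaks in the EBF-/- list, and 20 against 13 in the RAG1-/- list.

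**Figure D1:**
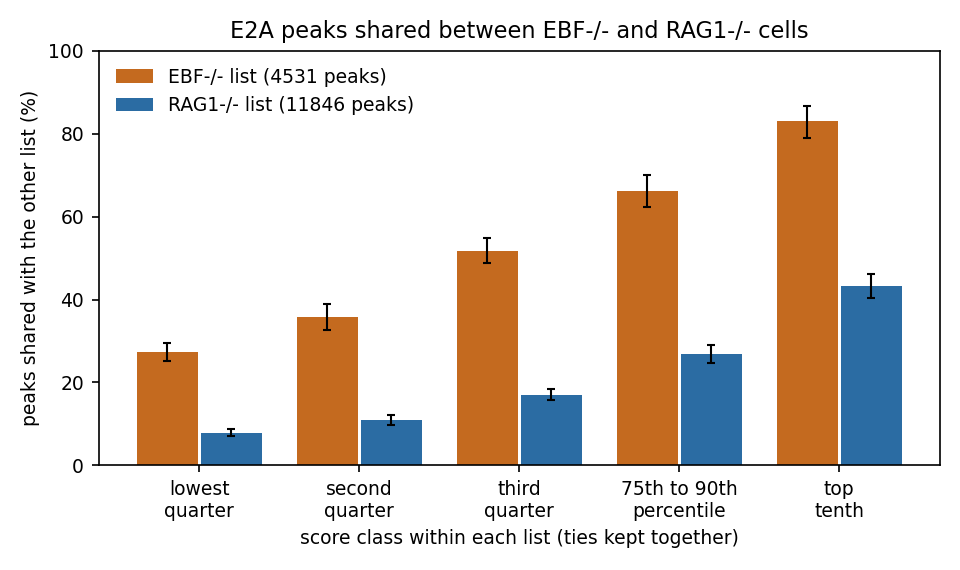
Percent of E2A peaks in each list (vertical axis) that overlap a peak of the other list by at least 1 bp, by score class within the list (horizontal axis, ties kept together). Bars are 1 library each and error bars are 95% Clopper-Pearson intervals; sharing climbs from 27.3% to 83.0% in the EBF-/- list and from 7.90% to 43.3% in the RAG1-/- list.

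The difference between 44.7% and 17.1% follows from the length of the lists, since the shared count was 2026 in both. With the RAG1-/- list shortened to its 4531 highest-scored peaks, whose lowest score was 16, 1266 sites were shared, 27.9% of each list, and 3265 were left unshared on each side. Unshared sites were seldom near misses. Within 1 kb of a peak in the other list lay 247 of the EBF-/- alone peaks (9.86%) and 327 of the RAG1-/- alone peaks (3.33%), and the median distance to the nearest peak of the other list was 26.4 kb and 75.5 kb. In the RAG1-/- list 38.2% of peaks had another peak of the list within 10 kb, against 19.7% in the EBF-/- list. These shares and the distances above depend on how many peaks each list holds, and they were not read at equal length.

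Among the 2026 shared sites the paired peaks sat at nearly the same place, with a median distance of 26 bp between centres and 77.0% of pairs within 50 bp. Their ranks were related but far from identical: Spearman's rho across sites was 0.43, a description with no p, since sites are not replicates and both lists share the ways in which a region can be sequenced and called. The top 10% held 207 sites in EBF-/- cells and 201 in RAG1-/- cells, ties included, and 93 were in both, 44.9% and 46.3% of each. The median site moved by 388 ranks, and 229 sites (11.3%) moved by more than 50% of the ranks.

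**Figure D2:**
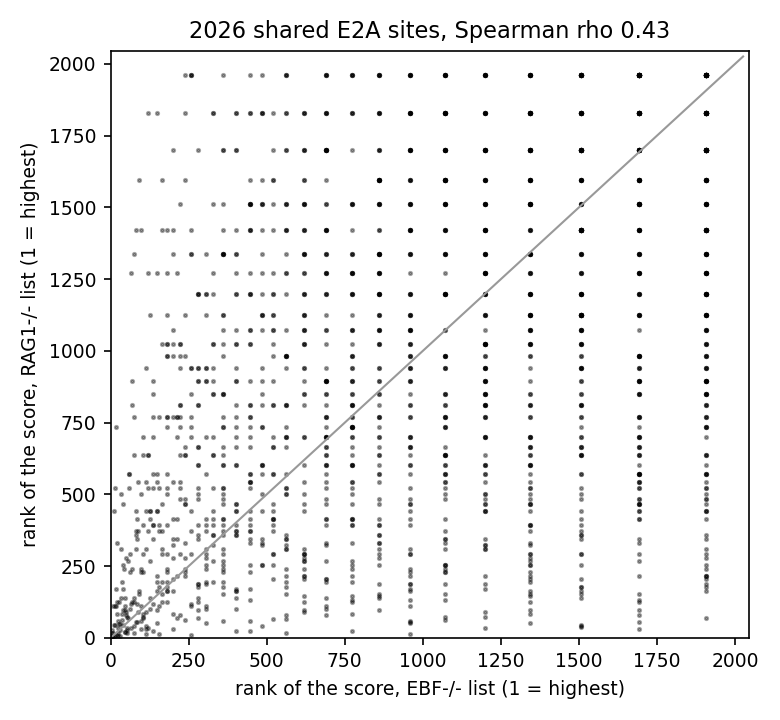
Rank of the score of each of the 2026 shared E2A sites in the EBF-/- list (horizontal axis) against its rank in the RAG1-/- list (vertical axis), with 1 as the highest; each point is 1 site and the line marks equal ranks. Points scatter widely around the line (Spearman rho 0.43), with sites in the upper left and lower right corners, ranked high in only 1 of the lists.

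Some of the strongest shared sites led both lists. Gtf3c6, a subunit of the RNA polymerase III factor TFIIIC, had the highest EBF-/- score, 129, at a site scored 128 in RAG1-/- cells (chr10:39947916-39948115, 4.3 kb from its probe, with an EBF1 peak within 1 kb). The highest RAG1-/- score, 138, was at chr11:87239183-87239382, 38.3 kb from the probe of Rad51c, a recombination repair gene, where the EBF-/- peak scored 88. Tex14 and Punc lay near sites scored 88 and 95 in EBF-/- cells and 121 and 117 in RAG1-/- cells. In the RAG1-/- list the shared top 10 also held peaks near Armh1 (score 120, and 71 in EBF-/- cells), Xrcc6 (114 and 69, with FOXO1 within 1 kb), B4galt1 (109 and 80, with FOXO1), Arl4d (108 and 73) and Hdhd5 (103 and 31, with EBF1 and FOXO1). Xrcc6 encodes Ku70 of DNA end joining.

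The shared sites with the largest rank gains in RAG1-/- cells were near the bottom of the EBF-/- list, as this choice of sites requires. The largest moves the other way are bound to start high in that list. A site near Irf8, a factor of myeloid and B-cell development, scored 11 in EBF-/- cells and 57 in RAG1-/- cells (chr8:123611150-123611349, 30.7 kb from the probe). Sites near Cep170 and Ctsb went from 11 to 59 and from 11 to 56, each with a FOXO1 peak, and one near Hnrnpll, a regulator of lymphocyte splicing, from 12 to 91. In the other direction, sites near Srl (39 and 10), Snap47 (31 and 9) and Klf10 (27 and 9, with FOXO1) ranked high only in the EBF-/- list. A site 2.3 kb from the probe of Ccnd2, which encodes cyclin D2, scored 25 in EBF-/- cells and 9 in RAG1-/- cells. When the shared sites were split into 3 equal groups by the difference of ranks, a FOXO1 peak lay within 1 kb of 14.1% of those ranked higher in RAG1-/- cells, 9.78% of the middle and 6.67% of those ranked higher in EBF-/- cells. The same shares for EBF1 were 7.54%, 5.78% and 5.33%. For H3K4me3 of EBF-/- cells they ran the other way, 10.2%, 19.0% and 30.5%, and peaks of the no-antibody control library of wild-type lymphoid cells did likewise, 0.296%, 1.33% and 4.74%, whose part in the ranks was not tested.

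The classes differed in the factors found with them. EBF1 was mapped in RAG1-/- cells (1402 peaks), and it overlapped 1.24% of EBF-/- alone sites (95% interval 0.842 to 1.75), 4.74% of shared sites (3.85 to 5.76) and 5.96% of RAG1-/- alone sites (5.50 to 6.44). FOXO1, mapped in the same cells (1575 peaks), overlapped 1.44%, 8.05% and 5.07%. Either factor was found at 67 EBF-/- alone sites (2.67%), 247 shared sites (12.2%) and 1030 RAG1-/- alone sites (10.5%). Both together overlapped 53 RAG1-/- alone sites, 12 shared sites and 0 of the 2505 EBF-/- alone sites, which allows a share of up to 0.12%. With lists of equal length the EBF1 shares were 1.59%, 5.92% and 11.2% and the FOXO1 shares 1.62%, 11.4% and 9.43%.

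Read from the side of the factors, 681 of the EBF1 peaks (48.6%) overlapped E2A of RAG1-/- cells and 125 (8.92%) overlapped E2A of EBF-/- cells. With equal list lengths these shares were 31.4% and 8.92%. For FOXO1 they were 42.0% and 12.5%, or 28.7% and 12.5% at equal length. The score separated the factors further. In the top 10% of the RAG1-/- list, EBF1 overlapped 133 of 665 unshared peaks but 39 of 508 shared peaks (7.68%), while FOXO1 overlapped 18.2% and 18.1%. In the lowest score class the EBF1 shares were 2.59% and 2.67%. CTCF, an architectural factor mapped in RAG1-/- cells (38838 peaks), overlapped 6.75%, 8.39% and 12.6% of EBF-/- alone, shared and RAG1-/- alone sites, and with equal list lengths 7.04%, 8.14% and 7.26%.

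The 10 highest-scored sites of the RAG1-/- alone and EBF-/- alone classes also differed. Of the top 10 RAG1-/- alone sites, 9 had EBF1 or FOXO1 within 1 kb (4 EBF1, 7 FOXO1) and none had H3K4me3 of either cell type. They lay near Me3 (chr7:89710917-89711116, score 118, FOXO1), Gucy1b2 (chr14:61379419-61379618, score 111, both factors), Thoc3 (99, FOXO1), Zhx2 (98, EBF1) and Lhpp (95, both), among others. Of the top 10 EBF-/- alone sites, 6 had H3K4me3 of EBF-/- cells within 1 kb, 2 had H3K4me3 of RAG1-/- cells, 1 had EBF1 and none had FOXO1. The highest, at chr11:108827949-108828148 with score 107, also had a peak of the no-antibody control within 1 kb. The next lay near Myo3a (score 70), Mid1 (66), H1f1 (65, 0.3 kb from the probe of this linker histone) and Eea1 (59).

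Chromatin at the sites differed with the class and with the cell type in which it was read. H3K4me3 overlapped 34.0% of EBF-/- alone sites in EBF-/- cells and 36.0% in RAG1-/- cells, against 16.2% and 26.3% of shared sites and 8.64% and 15.5% of RAG1-/- alone sites. An array probe lay within 10 kb of 39.4%, 35.9% and 30.7% of the 3 classes. The excess over shared sites varied with the score. In the EBF-/- list's lowest score class H3K4me3 of EBF-/- cells overlapped 39.2% of unshared and 18.6% of shared peaks, and H3K4me3 of RAG1-/- cells 42.2% and 28.6%. In the class from the 75th to the 90th percentile the shares were 14.9% and 16.0%, and 15.4% and 26.0%, the reverse order. In the top 10% they were 20.3% of 69 unshared and 10.4% of 338 shared peaks, and 18.8% and 20.1%. H3K9/14 acetylation overlapped 46.2% of EBF-/- alone, 33.7% of shared and 14.8% of RAG1-/- alone sites in EBF-/- cells, and 39.2%, 30.3% and 16.9% in RAG1-/- cells. With lists of equal length the H3K4me3 shares were 32.6%, 9.08% and 3.06% in EBF-/- cells and 36.0%, 20.5% and 11.5% in RAG1-/- cells. The no-antibody control overlapped 1.92%, 2.12% and 0.275% of the classes, and its part in the promoter overlap was not tested. H3K27me3, the Polycomb mark, overlapped 0.102% to 0.599% of the classes in the 2 maps.

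H3K4me2 lists were of like length in the 2 cell types (27025 and 26549 peaks), so they can be set side by side. H3K4me2 overlapped 24.6% of RAG1-/- alone sites in EBF-/- cells and 42.2% in RAG1-/- cells. At EBF-/- alone sites the shares were 39.9% and 29.9%, and at shared sites 46.2% and 44.8%, so the mark was listed more often in the cell type where E2A was listed. Counting marks within 1 kb, 24.8% of RAG1-/- alone sites had H3K4me2 in both maps, 24.3% in the RAG1-/- map alone, 5.80% in the EBF-/- map alone and 45.1% in neither. Of EBF-/- alone sites, 33.5% had it in both maps, 20.2% in the EBF-/- map alone and 7.94% in the RAG1-/- map alone. The H3K4me1 lists differ in length (7544 and 23054 peaks): it overlapped 5.58% and 29.1% of RAG1-/- alone sites in EBF-/- and RAG1-/- cells, 8.14% and 23.2% of shared sites and 7.51% and 12.3% of EBF-/- alone sites. None of H3K4me1, H3K4me2, H3K4me3 and H3K9/14 acetylation lay within 1 kb of 63.0% of RAG1-/- alone sites in EBF-/- maps, against 32.7% in RAG1-/- maps.

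**Figure D3:**
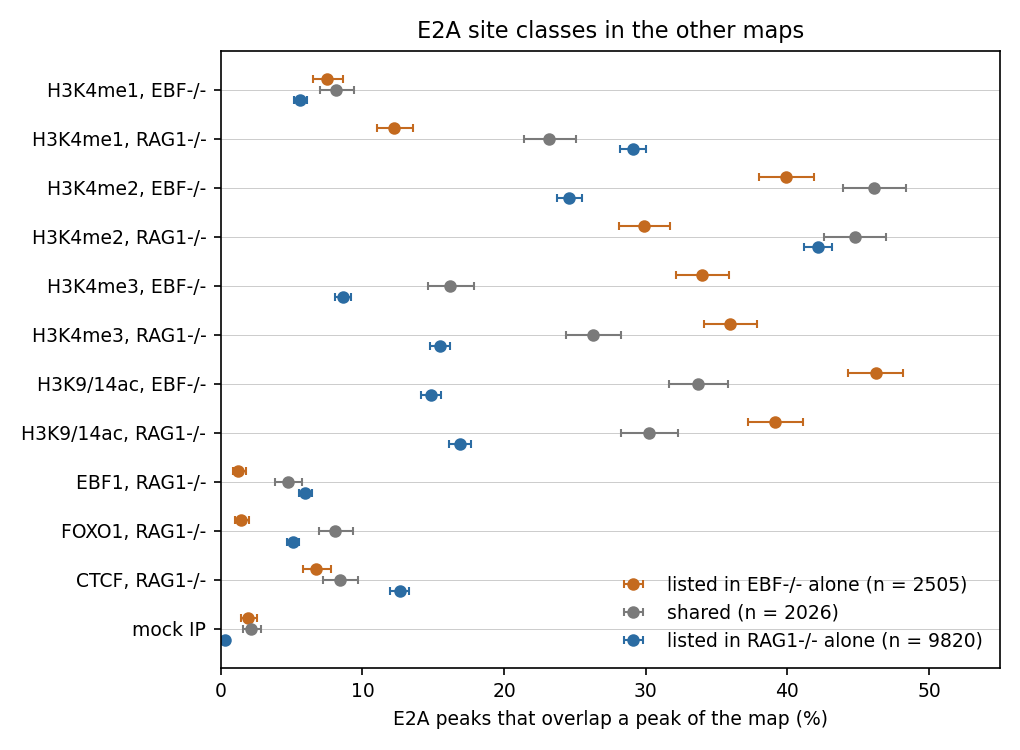
Percent of E2A sites listed in EBF-/- cells alone, shared, or listed in RAG1-/- cells alone (points, horizontal axis) that overlap a peak of each map named on the vertical axis by at least 1 bp; error bars are 95% Clopper-Pearson intervals and each map is 1 library. EBF1 and FOXO1 overlap 1.24% and 1.44% of EBF-/- alone sites, and H3K4me3 lies highest there, at 34.0% and 36.0%.

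RNA was then read for the genes near each class, with a peak assigned to a gene when its centre lay within 50 kb of a probe of the gene. Of 12681 genes tested between RAG1-/- and EBF-/- samples (limma, Benjamini-Hochberg adjusted p under 0.05), 43.9% were called, 20.6% higher and 23.3% lower in RAG1-/- cells. The counts were 2617 higher and 2951 lower, and under median scaling 2449 and 1946, so that the larger side turned. Of 4140 genes with no E2A peak nearby, 19.3% were higher and 20.2% lower. Of 3476 genes whose nearby peaks were all of the RAG1-/- alone class, 896 (25.8%) were higher and 20.2% lower, and their median difference was 0.10 on the log2 scale, beside 0.03 over all genes. Of 968 genes near EBF-/- alone peaks only, 117 (12.1%) were higher and 278 (28.7%) lower, with a median of -0.12. Of 493 genes near shared peaks only, 18.3% were higher and 27.4% lower.

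The share of genes higher in RAG1-/- cells went up with the number of RAG1-/- alone peaks, from 21.5% of 2017 genes with 1 peak to 26.9% of 829 with 2, 35.9% of 343 with 3 and 40.8% of 287 with 4 or more. The share lower in RAG1-/- cells was 21.7%, 19.7%, 14.9% and 18.1% in the same groups. Of 140 genes with 2 or more EBF-/- alone peaks and no other, 7.86% were higher and 33.6% lower. A RAG1-/- alone peak with EBF1 lay near 754 genes, of which 32.4% were higher, and one with FOXO1 near 631, of which 32.0% were higher, against 23.1% of the 6529 genes near such a peak with neither. These shares are read against 20.6% of all genes, and one peak can count for several genes. Without EBF-/- sample 1 the numbers were 414 of the 3476 (11.9%, beside 8.14% of all genes) and 143 of the 968 lower (14.8%, beside 9.91%), and without EBF-/- sample 2 they were 457 (13.1%, beside 8.93%) and 150 (15.5%, beside 10.8%). With lists of equal length 454 of 1326 genes near RAG1-/- alone peaks only were higher (34.2%), and 717 of 2540 near EBF-/- alone peaks only were lower (28.2%).

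**Figure D4:**
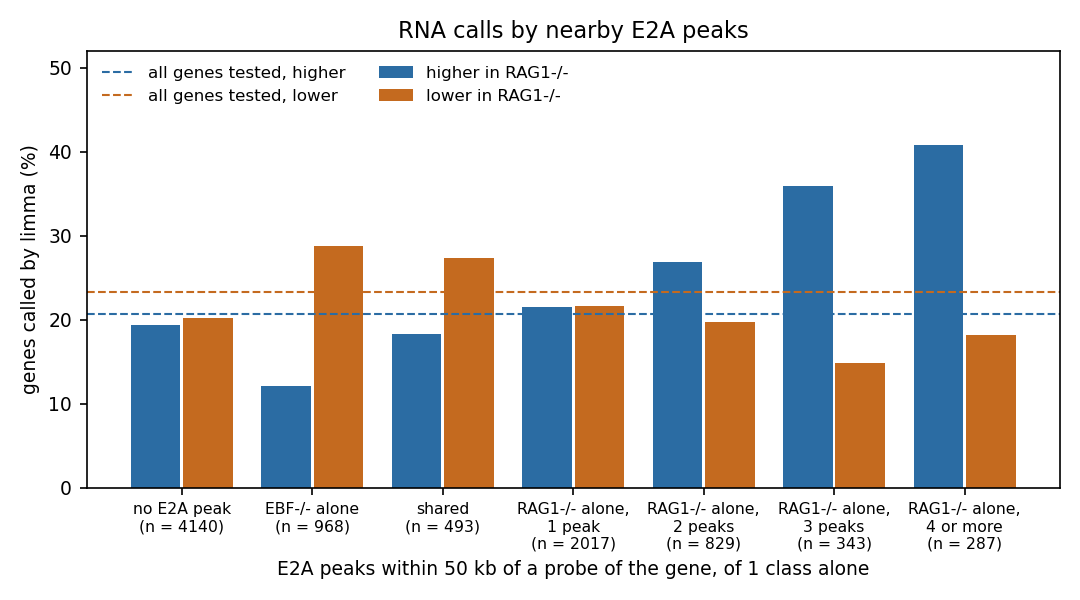
Percent of genes called higher (blue bars) or lower (orange bars) in RAG1-/- than in EBF-/- cells by limma (vertical axis), by the class and number of E2A peaks within 50 kb (horizontal axis, genes with 1 class alone); dashed lines are the shares over all genes tested. The share called higher goes from 21.5% with 1 RAG1-/- alone peak to 40.8% with 4 or more, beside 20.6% of all genes.

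The genes deleted in these cells were read first. Ebf1 RNA was 10.87 and 10.91 (log2 signal) in EBF-/- samples and 12.55 and 12.38 in RAG1-/- samples, a difference of 1.61 (SE 0.47) that missed the threshold (adjusted p = 0.0514). The E2A-/- samples, at 6.94 and 5.38, enter that spread. In a fit of EBF-/- and RAG1-/- samples alone Ebf1 was called (difference 1.58, adjusted p = 0.00272). A second kept Ebf1 probe, dimmer, read 4.54 and 3.42 in EBF-/- samples and 8.36 and 8.26 in RAG1-/- samples. Its EBF-/- values lay below the lowest signal measured above background in those samples, 6.26 and 5.21. Rag1 was 9.79 and 9.58 in EBF-/- samples and 10.52 and 11.12 in RAG1-/- samples. Whether any of these probes falls inside the deleted parts is unknown, so none of these levels checks the labels. Ebf1 had 2 RAG1-/- alone peaks (chr11:44468150-44468349, score 18, and chr11:44851619-44851818, score 14) and no peak of EBF-/- cells. For marker levels, genes of the pre-B receptor list stood apart between the cell types: their summed signal on a linear scale was 25459 and 26501 in EBF-/- samples against 1169186 and 999071 in RAG1-/- samples. The EBF-/- samples were higher in summed NK markers (78658 and 81403 against 2985 and 4301), dendritic markers (48882 and 52728 against 15665 and 13371), progenitor markers (137044 and 138366 against 25379 and 29943) and stromal markers (8062 and 7070 against 329 and 404, mostly Pdgfrb). Myeloid markers separated the RAG1-/- samples, at 12450 and 60888, with the EBF-/- samples at 57332 and 55721. In bulk RNA, fewer cells of a type and less RNA per cell cannot be told apart, and the part of other cells in the results below was not tested.

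Genes of the pre-B receptor and its signalling chain had E2A in RAG1-/- cells almost throughout. Of 14 genes, 13 had a RAG1-/- alone peak within 50 kb, 3 a shared peak and 3 an EBF-/- alone peak. Added gene by gene, these made 35, 3 and 3 peaks. Here and in the lists below, a peak near several genes of a list counts for each of them. Over all 20759 named genes with a position, 43.4% had a RAG1-/- alone peak, 15.9% a shared one and 20.7% an EBF-/- alone one. Of the 12661 tested for RNA, 6849 had a RAG1-/- alone peak, 2638 a shared one, 3412 an EBF-/- alone one and 4140 none. Tested genes thus had peaks nearby more often than all named genes. The shares of all genes quoted beside each list do not take this into account, although 13 of these 14 genes were tested. Of the 13 tested, 11 were higher in RAG1-/- cells and 1, Bank1, was lower, with a median difference of 7.78 (log2), beside 20.6%, 23.3% and 0.03 over all genes.

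Igll1 and Vpreb1, the surrogate light chain genes, are neighbours and share 4 RAG1-/- alone peaks and 1 EBF-/- alone peak. The strongest, at chr16:16777595-16777794 (score 83), lay 1.9 kb from the Igll1 probe and had EBF1 and H3K4me3 of RAG1-/- cells within 1 kb. Igll1 was 5.24 and 5.41 in EBF-/- samples, 1 of them well above background, and 15.95 and 15.79 in RAG1-/- samples (difference 10.66, SE 1.93, adjusted p = 0.0136). A difference that rests on a sample not above background is imprecise in size. Vpreb1 was 9.12 and 9.03 against 18.60 and 18.44 (722-fold, adjusted p = 0.00235). Its near-identical paralogue Vpreb2, with 3 RAG1-/- alone peaks, was 4.94 and 5.68, 1 of them well above background, against 14.58 and 14.22; probes of the pair may share signal. All 3 genes were higher in both RAG1-/- samples than in either EBF-/- sample. With 2 samples a group such a separation says little, and its share over all genes was not counted. The calls for Igll1 and Vpreb2 were lost without EBF-/- sample 1 (adjusted p = 0.0728 and 0.062).

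Vpreb3, a relative of the VpreB genes expressed in B-cell precursors, had 5 RAG1-/- alone peaks and no other. One lay 0.2 kb from its probe (chr10:75393349-75393548, score 50) with EBF1 and H3K4me3 of RAG1-/- cells. Its RNA was 5.44 and 5.56 in EBF-/- samples, 1 of them well above background, and 17.72 and 17.42 in RAG1-/- samples (difference 12.25, SE 2.96, adjusted p = 0.0304). The E2A-/- samples, which enter the estimate of spread, were far apart at 14.34 and 3.84, and the call was lost without RAG1-/- sample 1 (adjusted p = 0.111), EBF-/- sample 1 (0.15) or EBF-/- sample 2 (0.0556). In a fit of EBF-/- and RAG1-/- samples alone the difference was 12.07 (adjusted p = 0.000358).

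Cd79a and Cd79b encode Igα and Igβ, the signalling pair of the receptor, and had only RAG1-/- alone peaks. Cd79a had 2, both with EBF1 within 1 kb (chr7:24605991-24606190, score 59, and chr7:24605121-24605320, score 21). Cd79a was not well above background in EBF-/- samples (3.12 and 3.11) and was 10.45 and 10.21 in RAG1-/- samples, at least 24.2-fold higher (adjusted p = 0.00336). A bound of this kind sets the mean of the brighter samples against the lowest signal measured above background. Cd79b, with 5 peaks, was 7.63 and 7.18 against 17.30 and 16.79 (difference 9.68, SE 0.85, adjusted p = 0.00214). Blnk, the adaptor that links the receptor to calcium signalling, had 2 RAG1-/- alone peaks and was 10.93 and 10.99 against 17.93 and 17.82 (difference 6.93, SE 0.37, adjusted p = 0.000812). Blk, a Src-family kinase, had 4 RAG1-/- alone peaks and 1 shared, and was at least 54.4-fold higher. None of these genes' samples overlapped between the cell types, a separation whose share over all genes was not counted.

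Of 14 B-cell surface genes, 12 had a RAG1-/- alone peak (85.7%, beside 43.4% of all genes), 6 a shared (42.9%, beside 15.9%) and 5 an EBF-/- alone peak (35.7%, beside 20.7%). Of 12 tested, 9 were higher in RAG1-/- cells and 1, Ptprc, was lower, beside 20.6% and 23.3% of all genes. Cd22, an inhibitory co-receptor, had 7 RAG1-/- alone peaks, of which 1 had EBF1 (chr7:30587800-30587999) and 1 FOXO1 (chr7:30572254-30572453, the strongest, score 34). It was at least 20.9-fold higher, from values of 2.90 and 4.59 not well above background to 11.02 and 9.22. Enpep, the BP-1 antigen, had 1 RAG1-/- alone peak and was at least 167-fold higher. The Cd22 call was lost without RAG1-/- sample 1, EBF-/- sample 1 or EBF-/- sample 2 (adjusted p = 0.108, 0.126 and 0.0514).

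Transcription factors of the B lineage carried the most RAG1-/- alone peaks among the B-cell lists, 58, beside 12 EBF-/- alone and 6 shared. Of 17 with a position, 16 had a RAG1-/- alone peak (94.1%, beside 43.4% of all genes), and 11 of 17 tested were higher in RAG1-/- cells (beside 20.6% of all genes) and 6 not called. Pou2af1, the Oct coactivator OBF-1, had 3 RAG1-/- alone peaks, the strongest at chr9:50965339-50965538 (score 66). It was 5.24 and 5.41 in EBF-/- samples, 1 of them well above background, and 17.58 and 16.99 in RAG1-/- samples (difference 12.10, adjusted p = 0.0162), a call lost without RAG1-/- sample 1 or EBF-/- sample 1 (0.0561 and 0.0864). Lef1, a nuclear factor of Wnt signalling, had 3 such peaks and was 5.40 and 5.37, 1 of them well above background, against 14.93 and 15.13 (difference 9.74, adjusted p = 0.00918; 0.0507 without EBF-/- sample 1). Irf4 had 3 and was 6.66 and 6.31 against 12.01 and 11.22 (difference 5.17). Ikzf3, which encodes Aiolos, had 5, the strongest 7.8 kb from its probe (chr11:98275332-98275531, score 66). It was 6.03 and 6.04, 1 of them well above background, against 8.94 and 8.76 (difference 2.82, adjusted p = 0.00191). Its other kept probes were higher too, from 3.95 and 4.32 against 6.2 and 5.16 to 3.26 and 3.29 against 11.86 and 11.75.

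The genes of the network itself differed in where E2A lay. Foxo1 had 3 RAG1-/- alone peaks and 1 shared peak with EBF1 within 1 kb (chr3:52484231-52484430, score 34). Its RNA was 8.41 and 8.40 in EBF-/- samples and 13.94 and 13.97 in RAG1-/- samples (difference 5.57, SE 0.44, adjusted p = 0.00174). Tcf3 itself had 2 EBF-/- alone, 1 shared and 1 RAG1-/- alone peak, with scores of 12 to 19, and was 13.42 and 13.40 against 15.04 and 14.72 (difference 1.49, SE 0.43, adjusted p = 0.0474). That call was lost without RAG1-/- sample 1, EBF-/- sample 1 or EBF-/- sample 2, where the difference was 0.98, 1.23 and 1.75. The E2A-/- samples, at 10.8 and 9.45, enter the spread. In a fit of EBF-/- and RAG1-/- samples alone the Tcf3 difference was 1.47 (adjusted p = 0.00337). Pax5, the commitment factor, had no E2A peak within 50 kb of its probe in either list, while its RNA was 7.04 and 6.55 against 14.22 and 14.00 (difference 7.36, adjusted p = 0.00251). Spib, an Ets factor, had all 3 classes (3 EBF-/- alone, 1 shared and 5 RAG1-/- alone, one of these at chr7:44415861-44416060 with EBF1 and score 71). Klf2, a quiescence factor, had 9 RAG1-/- alone peaks, the most of any listed gene, with 1 EBF-/- alone and 1 shared peak. Its RNA was 15.65 and 15.79 against 15.63 and 15.58 (adjusted p = 0.506).

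Of 12 recombination genes, 8 had a RAG1-/- alone peak (66.7%, beside 43.4% of all genes), 5 a shared one (41.7%, beside 15.9%) and 0 an EBF-/- alone peak (beside 20.7%), and 6 of 11 tested were higher in RAG1-/- cells (beside 20.6%) and 5 not called. Rag1 and Rag2, the recombinase genes, are neighbours and share 7 RAG1-/- alone peaks, the strongest at chr2:101466286-101466485 (score 47). The Rag1 difference was 1.14 (adjusted p = 0.0292) and was lost without any 1 of the EBF-/- or RAG1-/- samples (adjusted p from 0.0549 to 0.204). Dntt, which encodes terminal transferase, had 2 shared and 2 RAG1-/- alone peaks and was 12.60 and 12.52 against 15.16 and 16.47 (difference 3.25, adjusted p = 0.00241). Lig4, the ligase of end joining, had 1 RAG1-/- alone peak and was 8.23 and 7.85 against 12.20 and 12.19 (difference 4.16, adjusted p = 0.000447). Hmgb1, a cofactor of the recombinase, had 8 RAG1-/- alone and 3 shared peaks and a difference of 0.69 (adjusted p = 0.0231), lost without EBF-/- sample 1 (0.136) or EBF-/- sample 2 (0.085).

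In the E protein, Id and Notch list 13 of 15 genes had a RAG1-/- alone peak (86.7%, beside 43.4% of all genes), 9 an EBF-/- alone (60.0%, beside 20.7%) and 7 a shared one (46.7%, beside 15.9%). Of 14 tested, 7 were higher and 4 lower in RAG1-/- cells, beside 20.6% and 23.3% of all genes. Id3 and Id2, inhibitors of E proteins, moved in opposite directions. Id3 had 3 shared, 4 RAG1-/- alone and 1 EBF-/- alone peak, and its strongest pair of shared peaks (chr4:135449290-135449489, score 79, and chr4:135449861-135450060, score 70) had EBF1 within 1 kb. These 2 peaks lay 33.1 and 33.6 kb from the Id3 probe and nearer, 17.4 and 16.8 kb, to that of E2f2, a cell cycle factor that was also higher in RAG1-/- cells (difference 3.37, adjusted p = 0.00141). Id3 was 5.80 and 6.17 in EBF-/- samples, 1 of them well above background, and 12.09 and 12.25 in RAG1-/- samples (difference 6.21, SE 0.52, adjusted p = 0.00195). Id2 had a single RAG1-/- alone peak and was 12.31 and 12.04 against 9.43 and 9.58 (difference -2.67, SE 0.12, adjusted p = 0.000604). Hes5, a Notch target, had 3 RAG1-/- alone and 1 EBF-/- alone peak and was 7.40 and 7.44 against 11.66 and 12.05 (difference 4.44, adjusted p = 0.00057). Notch1 had 1 EBF-/- alone peak and was lower, 11.49 and 11.56 against 9.07 and 8.99 (difference -2.49, adjusted p = 0.000468). Hes1 had 7 RAG1-/- alone peaks and 1 EBF-/- alone peak and was at least 4.77-fold higher. That call was lost without either RAG1-/- sample, where the difference was 4.28 and 4.07.

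Of 17 FOXO and IL-7 receptor target genes, 17 had a RAG1-/- alone peak (beside 43.4% of all genes), 10 an EBF-/- alone (58.8%, beside 20.7%) and 9 a shared one (52.9%, beside 15.9%). In RNA 7 were higher, 4 lower and 6 not called, beside 20.6% higher and 23.3% lower over all genes. Il7r, the receptor for the IL-7 in both cultures, had a shared peak (score 80 in RAG1-/- cells) and 3 RAG1-/- alone peaks, one with FOXO1 13.9 kb from its probe (chr15:9436943-9437142, score 62). Its RNA was 13.22 and 13.14 against 13.40 and 12.94, overlapping between the cell types (difference -0.01, SE 0.15, adjusted p = 0.958). S1pr1, a sphingosine phosphate receptor, had 5 RAG1-/- alone peaks and was 7.57 and 7.32 against 10.26 and 9.99 (difference 2.68, adjusted p = 0.00203). Bcl2, the survival gene, had 5 RAG1-/- alone, 2 EBF-/- alone and 1 shared peak and was lower, 13.98 and 14.05 against 9.64 and 10.74 (difference -3.84, adjusted p = 0.00226). Bcl2l11, which encodes its antagonist BIM, had 3 shared and 1 RAG1-/- alone peak and was also lower (difference -2.44, adjusted p = 0.000444). Of 19 cell cycle genes, 15 had a RAG1-/- alone peak (78.9%, beside 43.4%), 14 were higher and 3 lower. Ccnd3, which encodes cyclin D3, had 3 RAG1-/- alone and 1 EBF-/- alone peak and was 13.07 and 13.06 against 15.67 and 15.74 (difference 2.64, adjusted p = 0.000481).

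Of 13 progenitor genes, 3 had a RAG1-/- alone peak (23.1%, beside 43.4% of all genes), 3 an EBF-/- alone (23.1%, beside 20.7%), 2 a shared (15.4%, beside 15.9%) and 6 none (46.2%, beside 45.6%). Among tested genes with a position, fewer had none, 4140 of 12661. Of 12 tested, 10 were lower in RAG1-/- cells, beside 23.3% of all genes, and 1, Erg, was higher. Flt3, the cytokine receptor of early lymphoid progenitors, had 2 shared peaks (chr5:147651416-147651615, score 51, and chr5:147676883-147677082, score 17) and no other. Its RNA was 12.51 and 12.86 in EBF-/- samples and 7.29 and 6.91 in RAG1-/- samples (difference -5.58, SE 0.10, adjusted p = 0.000378). FLT3 ligand was named for the EBF-/- culture alone, and its part in the Flt3 difference was not tested. Hoxa9, a stem and progenitor homeobox gene, had 1 EBF-/- alone peak and was 13.30 and 13.38 against 8.24 and 8.29 (difference -5.08, adjusted p = 0.000378), and Hoxa10, with the same class of peak, was at least 153-fold lower. Cd34, a stem cell surface gene, and Gata3, a T-lineage factor, had no E2A peak within 50 kb. Cd34 fell by 6.11 on the log2 scale and Gata3 was at least 50.1-fold lower.

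Genes of other lineages are read against all genes, of which 43.4% had a RAG1-/- alone peak, 20.7% an EBF-/- alone and 15.9% a shared one, and 20.6% were higher and 23.3% lower. NK genes were lower in RAG1-/- cells in 9 of 9 tested, with 11 RAG1-/- alone, 7 shared and 2 EBF-/- alone peaks near the 12 listed; Tyrobp, the DAP12 adaptor, had 2 shared peaks and was 15.68 and 15.72 against 10.67 and 10.96 (difference -4.89). Dendritic genes had 12 EBF-/- alone, 5 shared and 15 RAG1-/- alone peaks: 7 of 10 had one, 6 a RAG1-/- alone and 4 a shared one, and 6 of 10 were lower and 1 higher. Bst2, the tetherin gene, had 4 EBF-/- alone peaks, one 1.2 kb from its probe (chr8:74464824-74465023, score 23), and 1 RAG1-/- alone peak. It was 14.99 and 15.11 against 11.84 and 11.87 (difference -3.19, SE 0.08, adjusted p = 0.000378). Ptcra, the pre-T receptor chain, had 3 EBF-/- alone peaks and was not tested. T-lineage genes had a RAG1-/- alone peak in 10 of 14, and of 9 tested 5 were lower and 1, Lat, was higher. The myeloid list had a RAG1-/- alone peak at 8 of 13 genes, with 4 of 11 tested lower and 1 higher. The mast cell list had no E2A peak. The erythroid list had 2 genes with an EBF-/- alone peak and no call among 2 tested. The stromal list had 1 EBF-/- alone, 1 shared and 3 RAG1-/- alone peaks, and 1 of 2 tested, Pdgfrb, was lower.

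**Figure D5:**
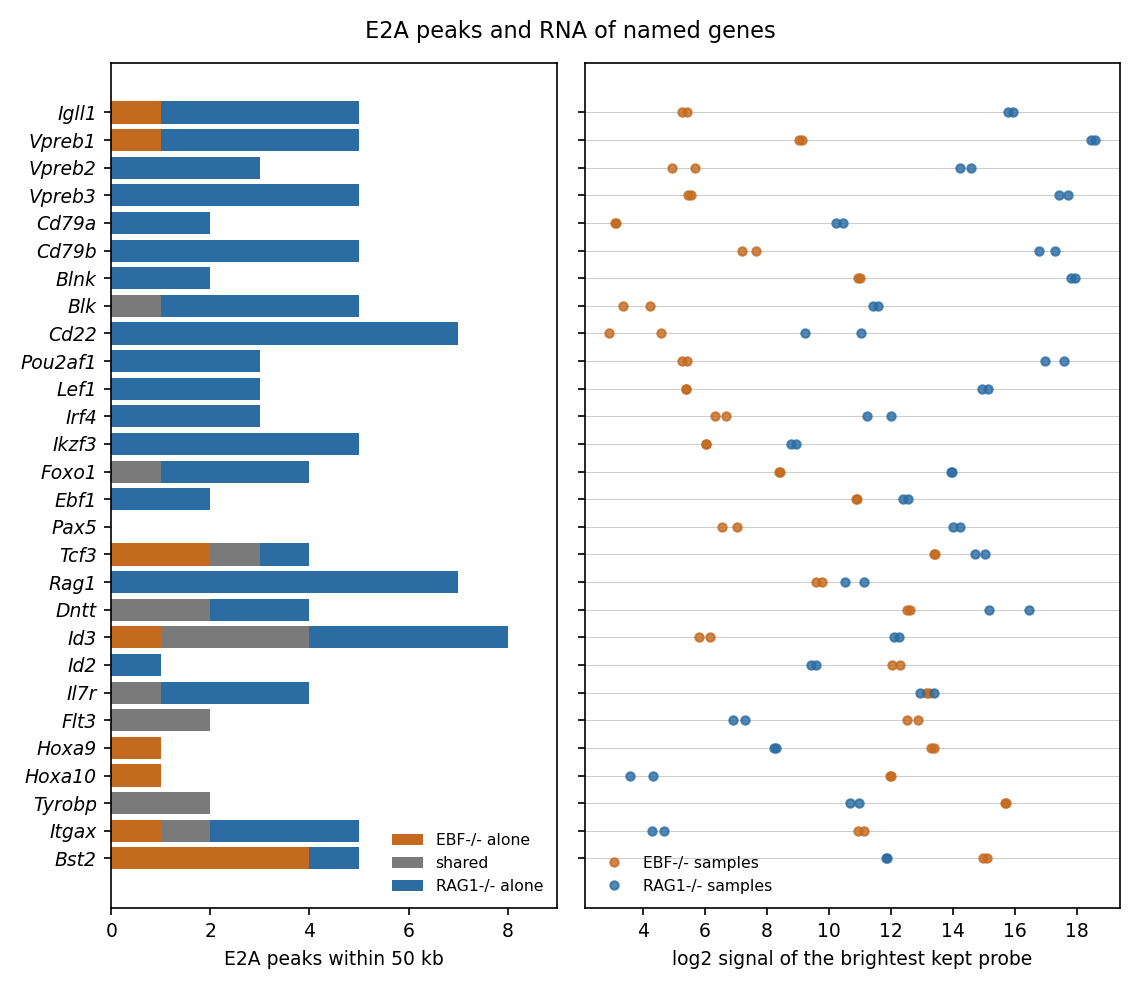
E2A peaks of each class within 50 kb of a probe (left, stacked bars) and log2 signal of the brightest kept probe in the 2 EBF-/- and 2 RAG1-/- samples (right, 1 point a sample) for named genes. The genes were picked from the lists and do not stand for all members: Bank1 and Ptprc, lower in RAG1-/- cells, are not shown. Many B-lineage genes at the top carry mostly RAG1-/- alone peaks and RNA that lies higher in both RAG1-/- samples. Pax5 has no peak, and Tcf3 and Dntt also have peaks of other classes. Flt3, Hoxa9, Hoxa10, Tyrobp, Itgax and Bst2 at the bottom lie higher in both EBF-/- samples. The share of all genes separated in this way was not counted.

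Outside the lists, the genes with the largest changes and peaks of 1 class only were described next. Near EBF-/- alone peaks only, Il18r1, the IL-18 receptor chain, had 2 peaks and was at least 378-fold lower in RAG1-/- cells. The bounds were 232-fold lower for Cd163l1, a scavenger receptor gene of γδ T cells, and 53.1-fold lower for Hoxa5. Cd7, a T and NK surface molecule, differed by -6.70 and Ccl5, a chemokine of cytotoxic cells, by -6.43 (adjusted p = 0.000812 and 0.000378). In the other direction near such peaks, Cox7a1 differed by 3.74, Tpst1 by 3.32 and Cdkn2c, the p18 cyclin kinase inhibitor, by 2.77 (adjusted p = 0.000734, 0.00057 and 0.000823). Near RAG1-/- alone peaks only, Grb7 (4 peaks) was at least 327-fold higher, Pde2a, a phosphodiesterase (6 peaks), at least 357-fold, Gldc, the glycine decarboxylase (2 peaks), at least 239-fold, and Alpl, alkaline phosphatase (3 peaks), at least 230-fold. Grb7, an SH2 adaptor, was called with adjusted p = 0.009, or 0.0501 without EBF-/- sample 1. Lrrn3 and Clgn, with 1 RAG1-/- alone peak each, were at least 163-fold and 183-fold higher. The genes named here as lower near such peaks had 1 or 2 peaks each. Esm1 was at least 181-fold lower and Txk, a T-cell kinase of the Tec family, at least 72.6-fold. Ptprf, Klhl30 and Rgs1 differed by -7.86, -6.75 and -6.05. Over all genes near RAG1-/- alone peaks only, 51 of 343 with 3 peaks and 52 of 287 with 4 or more were lower.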

How the data were processed

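The authors' peaks, listed with HOMER on build mm8 per the submitters' processing notes (version and thresholds not given in the sources used here), carry a deposited whole-number score; E2A, EBF1 and CTCF peaks are 200 bp wide, FOXO1 peaks 76 bp, histone marks 1000 bp and control peaks 60 bp, and width affects overlap. Overlaps were at least 1 bp, or centres within 1 kb where stated. Array intensities, per the file headers, were background-subtracted and dye-normalized by Agilent Feature Extraction 9.5.3.1, and were then quantile normalized as log2 and fitted with limma 3.58.1 (R 4.3.3) on 6 samples from 4 arrays, with group and dye as terms and array as a random block; the brightest kept probe stood for a gene. Kept were 22133 of 41099 probes, those well above background in both samples of a group. Replicate samples correlated at 0.977 to 0.989. E2A-/- sample 1 shared an array with RAG1-/- sample 1, and E2A-/- sample 2 with EBF-/- sample 1. What this sharing adds to the E2A-/- values was not tested. Tested on simulated data of 12681 genes for RAG1-/- against EBF-/-, the fit recovered 78% of 100 genes given a log2 change of 3 and 3% of 100 given a log2 change of 1. Only those genes were changed, while 43.9% of genes were called in the data, so the adjusted threshold was stricter in the simulation. These shares therefore do not measure recovery in the data. Probe positions on mm8 came from the array files. Genes were named by 4 rules: the top 10 peaks of each class, the 10 largest rank moves each way, the 12 largest changes each way near 1 class of peak, and members of 15 gene lists. The peaks, lists and rules were chosen with earlier results of these data known. Alternatives were other overlaps, list lengths, distances, normalizations and leaving out each sample; fits of 2 groups, control peaks left out and equal lengths for the gene counts were chosen after seeing the data. A member of the gene lists is counted in them but not reported by name. The H3K4me1 lists of other transgenic cells were not used here. Python 3.11.15, SciPy 1.17.1, NumPy 2.4.6, pandas 2.3.3 and matplotlib 3.10.9 were used.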

Additional observations from a re-analysis of the deposited data

How the results depend on the processing

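The shared part of the EBF-/- list was 44.7%, or 42.2% with at least 50% overlap, 50.2% with centres within 1 kb, 48.0% for the higher-scored 50% of each list and 27.9% at equal length. That of the RAG1-/- list was 17.1%, or 16.2%, 19.9%, 18.4% and 27.9%. The rank correlation was 0.43, or 0.37 in the higher-scored 50%. EBF1 overlapped 5.96% of RAG1-/- alone sites, or 7.05% with centres within 1 kb and 11.2% at equal length, and 4.74% of shared sites, or 6.59%, 5.92% and, with control peaks left out, 3.63%. The 5568 genes called ranged from 2289 to 5970 when 1 sample was left out, lowest without EBF-/- sample 1 and 2499 without EBF-/- sample 2. They numbered 4395 under median scaling, which moved the median of all genes from 0.03 to 0.16, and 4810 in EBF-/- and RAG1-/- samples alone. In that last fit 147 of the 151 named genes called were still called and 4 were not. Igll1, Vpreb2, Pou2af1, Cd22, Tcf3 and Rag1 were among those still called. Genes higher near RAG1-/- alone peaks numbered 896, from 414 to 892 with 1 sample left out and 454 at equal length. Genes lower near EBF-/- alone peaks numbered 278, from 143 to 322 with 1 sample left out, 191 under median scaling (19.7%, beside 15.3% of all genes there) and 717 at equal length. Their shares stayed above those of all genes under every alternative run. The replicate numbers are shared only as numbers (correlation of deviations 0.014 between EBF-/- and RAG1-/- sample 1); with them as a replicate block 6954 genes were called, 1076 and 353 near the classes. Of 151 named genes called, 93 were called under every alternative, and no called gene changed sign. Lyz2, a myeloid gene not called at 0.49, was 2.09 without RAG1-/- sample 1 and -1.06 without RAG1-/- sample 2. Where a direct cause is not named, the cause was not tested. Depth behind the peak lists is unknown, and 2 samples a group limit the array precision.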

Other observations

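Sites of the classes also differed in overlap with E47-ER, an inducible E2A protein put back into E2A-/- cells. After 1 h in E2A-/- pre-pro-B cells (26792 peaks) E47-ER overlapped 46.1% of EBF-/- alone, 74.4% of shared and 29.6% of RAG1-/- alone sites. After 6 h (15386 peaks) the shares were 35.7%, 65.1% and 18.4%. In A12, an E2A-/- T-cell line, after 6 h (17030 peaks) they were 21.3%, 51.5% and 19.6%. Shared sites thus had the highest overlap in each of the 3 maps, including the one of T cells, with 1 library each and no replicate check.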
